A study of Mus musculus with 4 samples.

Results

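The clustered histone genes of the mouse are the replication-dependent genes named Hist1h, Hist2h, Hist3h and Hist4h, which lie side by side on a few chromosomes. A gene was included when its symbol began with one of these names and its read counts summed to 20 or more over the 4 libraries of the study. These were 44 of 46078 gene rows, with 36 genes in the Hist1 cluster on chromosome 13, 4 in Hist2 on chromosome 3, 3 in Hist3 on chromosome 11 and 1 in Hist4 on chromosome 6. By product they were 5 linker histone H1 genes, 9 H2A genes, 12 H2B genes, 9 H3 genes and 9 H4 genes, and 1 of them, Hist3h2bb-ps, is annotated as a pseudogene. The reference annotation held 70 such symbols. A further 24 had a row with fewer than 20 counts, 10 of these with no read in any library, and 2 symbols, Hist1h2bh and Hist1h2bm, had no row of counts and were not analysed here. Just below the minimum lay Hist1h4f with 19 counts, Hist1h3h with 18, Hist1h4a with 16 and Hist1h2ad with 15, and just above it Hist1h4k and Hist1h2an with 21 and Hist1h2bl and Hist1h2bp with 22.

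RNA had been sequenced from dendritic cells, the antigen-presenting cells that were sorted here as positive for CD45, CD11b, MHCII and CD103 and negative for CD64 from spleen and mesenteric lymph node. The 2 control libraries (Ctrl) came from CD11c-cre mice and the 2 other libraries (Il33flx) from CD11c-cre-Il33flx/flx mice, in which Cre made under the CD11c promoter can delete the gene for the cytokine IL-33. All mice of both groups carried the Cre transgene and had been injected with EL4-Flt3 tumour cells 10 days earlier. The labels name no separate animal or pool behind each library, and the p-values therefore reflect differences between libraries that may be technical. Below, 4 values given in a row are those of Ctrl 1, Ctrl 2, Il33flx 1 and Il33flx 2. Il33 itself had 4, 8, 4 and 0 counts, too few to check the labels. Libraries held 67707682 to 81217828 gene counts, and levels are given as CPM, read counts scaled to the same library size. A gene without a read could hold up to 3 counts by chance, or 0.0391 to 0.0425 CPM. Ctrl 1 stood apart on the first principal component, at -79.5 against 19 to 31.3 for the other libraries. Markers of dendritic cells were present in every library, with Flt3 at 678 to 894 CPM, Itgae (CD103) at 56.8 to 116 CPM and Itgam (CD11b) at 97.8 to 128 CPM.

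Histones package DNA into nucleosomes, each a core of H2A, H2B, H3 and H4 with linker DNA bound by H1. The replication-dependent genes supply histones when a cell copies its DNA, and their mRNA normally ends in a short stem-loop rather than a poly(A) tail: the stem-loop is bound by SLBP, and the U7 small nuclear ribonucleoprotein guides the cut that follows it. The libraries had been made with an mRNA kit, a method that selects RNA by its poly(A) tail, so the values below count reads of these genes in a poly(A) preparation and not their whole mRNA. Some of these genes are also known to make polyadenylated mRNA from sites past the stem-loop, in differentiating or resting cells in particular.

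The stem-loop sequences of members that the results turn on are shown first because they mark the place where the usual histone mRNA ends. They were read from the GENCODE M21 transcripts of genome build GRCm38, on the strand of the gene and in DNA letters, and the capitals mark the 6-base stem, the 4-base loop and the other side of the stem.
Hist1h1c, chr13:23739507-23739532 on the plus strand: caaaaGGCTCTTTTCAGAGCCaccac
Hist1h2ae, chr13:23570663-23570688 on the minus strand: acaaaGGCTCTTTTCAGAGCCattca
Hist1h2bg, chr13:23571838-23571863 on the plus strand: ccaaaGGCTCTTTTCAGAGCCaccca
Hist1h2bj, chr13:22043633-22043658 on the plus strand: ccaaaGGCTCTTTTCAGAGCCacgca
Hist1h2bk, chr13:22036295-22036320 on the plus strand: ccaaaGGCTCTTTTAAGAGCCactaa
Hist1h3e, chr13:23561898-23561923 on the minus strand: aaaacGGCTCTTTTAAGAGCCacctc
Hist1h4d, chr13:23581945-23581970 on the plus strand: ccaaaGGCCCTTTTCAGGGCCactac
Hist1h4i, chr13:22040961-22040986 on the minus strand: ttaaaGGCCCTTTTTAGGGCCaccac
Hist2h2ac, chr3:96220413-96220438 on the minus strand: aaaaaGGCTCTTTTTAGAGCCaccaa

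Of the 44 genes, 32 had such a sequence after the stop codon, at a distance of 21 to 54 bases (median 31.5), and 36 had an annotated 3′ untranslated stretch in which it could be looked for. The form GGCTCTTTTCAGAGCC stood in 18 genes, 3 of H1, 5 of H2A, 6 of H2B and 4 of H3, and in no H4 gene. The form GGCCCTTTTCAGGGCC stood in 6 genes, all of H4. Of the remaining 8, Hist1h2bk and Hist1h3e were among 5 with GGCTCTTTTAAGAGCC, Hist1h4i and Hist2h4 had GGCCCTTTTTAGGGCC and Hist2h2ac had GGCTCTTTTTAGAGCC. The first 2 forms had been chosen as the most frequent ones in clustered histone transcripts, so their concentration there is partly set by that choice. These forms were found anywhere in a transcript, on the sense strand, in 35 of 22028 protein-coding genes (0.159%). Of those 35, 33 were clustered histone genes. A looser pattern, GGNNNNNTTNNNNNCC with 6 paired bases on each side of the loop (G-T pairs allowed), was found in 567 genes (2.57%). Of these, 44 were clustered histone genes and 523 were other genes. A match describes the letters of the annotated transcript and does not show where the sequenced RNA ended.

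Reads of these genes were few. In their sum they had 138, 140, 120 and 158 CPM, that is 0.0125% to 0.0160% of all gene counts. One H1 gene, Hist1h1c, held most of that sum, and without it the sums were 54.3, 61.6, 55.8 and 63.9 CPM. The H1 genes had 65.8% of the members' CPM, H2B 14.5%, H2A 8.87%, H4 6.71% and H3 4.12%, and the 4 most abundant genes together had 72.1%. The Hist1 cluster had 90.4%. A mean of 1 CPM or more was reached by 14 genes. To compare genes of different length, each mean over the 4 libraries was divided by the length of the gene's exons. This level ran from 0.0922 CPM per kilobase of exon to 51.4, with a median of 0.494. In the order of these levels only 2 pairs of neighbours had library ranges that did not overlap, Hist1h1c above Hist1h2bc and Hist1h1b above Hist1h4d. All other neighbours overlapped in their spread.

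**Figure D1:**
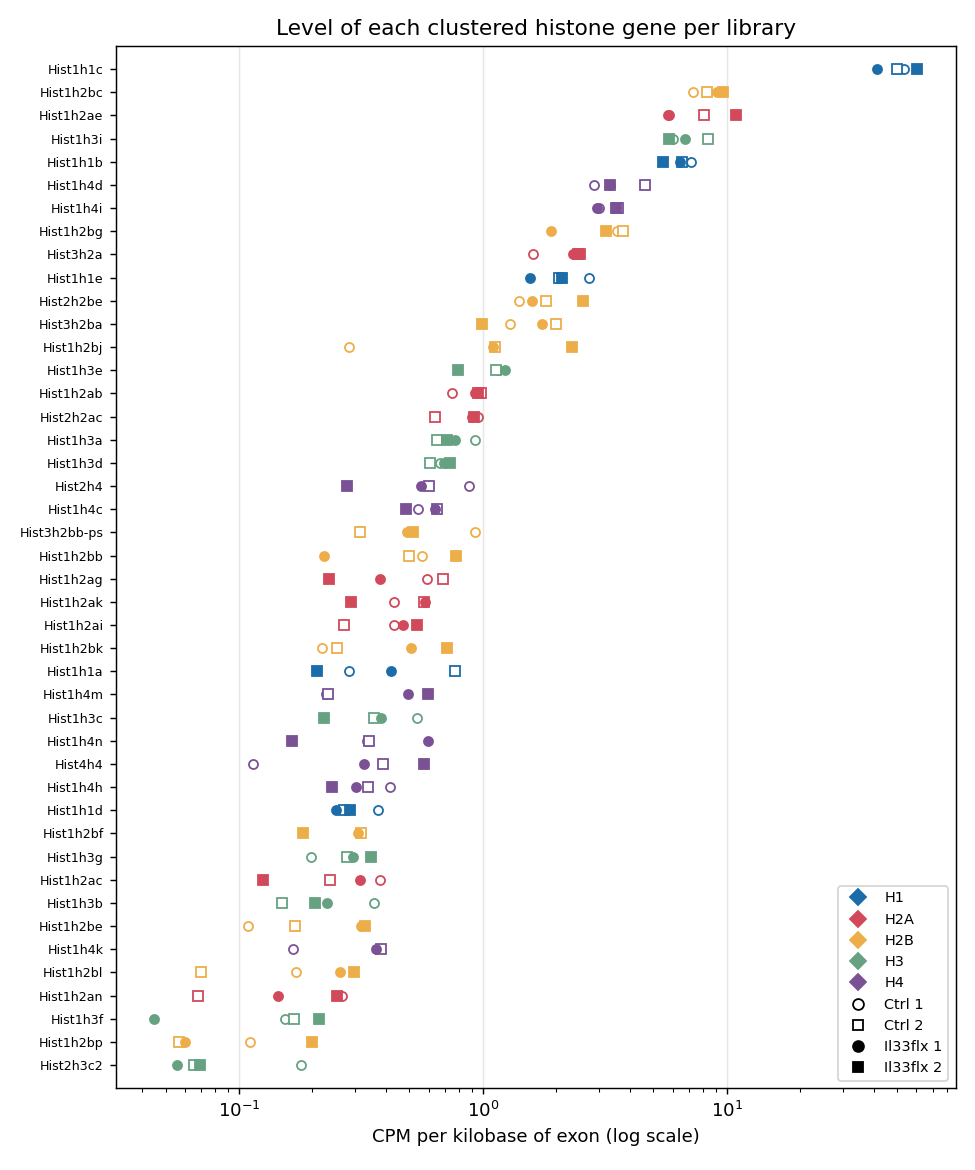
Each row is a clustered histone gene and each point one library, with CPM per kilobase of exon on a log axis, colour for the histone class and marker shape for the library. Hist1h1c, at a mean of 51.4, lies to the right of all other genes, and the points of most neighbouring genes overlap.

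For scale, the most abundant histone genes that are transcribed independently of replication and make polyadenylated mRNA lay higher per length. H2afz, the variant H2A.Z, had 273, 479, 356 and 472 CPM and a mean of 222 CPM per kilobase, and H3f3b, which encodes the replacement histone H3.3, had 305, 560, 483 and 511 CPM and a mean of 156 CPM per kilobase. H2afy, the macroH2A variant, had a mean of 111 CPM per kilobase. H1f0, the linker histone of resting cells, had a mean of 47.1 CPM per kilobase, close to the 51.4 of Hist1h1c. At the other end, 21 nuclear RNAs that normally have no poly(A) tail, such as Rn7sk, gave 0.925, 1.44, 0.751 and 0.734 CPM in their sum, and 9 of these had no read. The length of these RNAs was not considered and non-unique reads were not counted. This sum therefore does not measure how fully such RNA was left out. The mitochondrial ribosomal RNAs mt-Rnr2 and mt-Rnr1, placed on the same list, were far above this sum. With them the list summed to 128, 270, 244 and 176 CPM.

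The linker histone genes held the highest member. Hist1h1c (ENSMUSG00000036181, chr13:23738808-23740367 on the plus strand), a linker histone made in many cell types, had 83.6, 78.1, 64.3 and 94.4 CPM. The Il33flx libraries were thus the lowest and the highest, on both sides of the controls. Its counts, 4542 to 6685 per library, make the counting error small beside that spread. Hist1h1b, another linker histone, had 5.29, 4.85, 4.79 and 4.05 CPM, a mean of 6.39 per kilobase, with both Il33flx libraries under both controls. Hist1h1e, also a linker histone, had 5.28, 3.98, 3.0 and 4.07 CPM, or 2.11 per kilobase, and its groups overlapped. Hist1h1d had 2.75, 1.99, 1.86 and 2.12 CPM, or 0.293 per kilobase over a model that runs 4884 bases past its stem-loop. Hist1h1a, the last of the class, was at 0.421 per kilobase.

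Among the H2A genes, which encode 1 of the core histones, Hist1h2ae was highest with 4.04, 5.70, 4.08 and 7.68 CPM, or 7.64 per kilobase. The second libraries of both groups were above the first. Like every H2A member, and no member of another class, it overlaps a gene model on the opposite strand, here Gm44394. Without a stated strand setting the reads of both cannot be told apart. The part of this overlap in the H2A levels was not tested. Hist3h2a had 3.45, 5.26, 5.01 and 5.35 CPM, or 2.22 per kilobase, with Ctrl 1 below the other libraries. It overlaps Trim17 on the same strand, where reads that fit both genes are not assigned to either. Hist1h2ab was next with 0.352, 0.465, 0.439 and 0.452 CPM, or 0.903 per kilobase. The 9 genes ran down to 0.182 CPM per kilobase.

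H2B, the partner of H2A in the nucleosome core, was the class with the most members. Hist1h2bc had 8.42, 9.61, 10.5 and 11.1 CPM, or 8.58 per kilobase, and its annotated transcript has 2 exons and no stem-loop. Hist1h2bg had 2.20, 2.33, 1.18 and 1.98 CPM, or 3.11 per kilobase, and Hist2h2be had 3.67, 4.76, 4.15 and 6.75 CPM, or 1.84 per kilobase. Hist1h2bj had 0.130, 0.518, 0.510 and 1.07 CPM, an 8.24-fold range between its lowest and highest library, the widest among members with 100 counts or more. Its counts behind these values were 10, 39, 36 and 76. The 12 genes ran down to 0.107 CPM per kilobase.

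The H3 and H4 genes had the lowest shares. Hist1h3i was the highest H3 gene with 2.48, 3.46, 2.76 and 2.37 CPM, or 6.73 per kilobase, but 87.6% of the 50-base windows of its transcript are also found in the transcript of another gene, so its level is uncertain. Hist1h3e had 0.964, 0.944, 1.03 and 0.664 CPM, or 1.08 per kilobase, and Hist1h3a had 0.495, 0.346, 0.411 and 0.381 CPM, or 0.764 per kilobase. Hist1h4d was the highest H4 gene with 3.26, 5.24, 3.77 and 3.78 CPM, or 3.53 per kilobase. Hist1h4i followed with 2.18, 2.59, 2.14 and 2.56 CPM, or 3.25 per kilobase, and Hist2h4 with 1.43, 0.984, 0.907 and 0.452 CPM, or 0.579 per kilobase. Hist4h4 had 0.326, 1.12, 0.935 and 1.64 CPM, a 5.03-fold range.

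The level was next set beside the annotated transcript end. In 18 genes the annotated transcript runs more than 100 bases past the stem-loop, by 151 to 4884 bases. These genes had a median of 0.877 CPM per kilobase (range 0.0922 to 51.4) and included 9 of the 15 genes with the highest level. They held 80.5% of the members' CPM, most of it from Hist1h1c. Hist1h1c, Hist1h2ae, Hist1h4d, Hist1h4i and Hist1h2bg belong to them. In 14 genes the annotated transcript ends 3 to 74 bases after the stem-loop. Their median was 0.405 CPM per kilobase (range 0.107 to 1.21), they held 2.57% of the CPM, and Hist1h2bj, at the top of that range, and Hist1h2ab were the 2 among the highest 15. A further 7 genes are annotated by their coding sequence alone, Hist1h1b and Hist1h3i among them, with a median of 0.427 per kilobase. The last 5 are 4 genes whose 3′ untranslated stretch holds no stem-loop and the pseudogene Hist3h2bb-ps, which has no annotated coding sequence. They had a median of 0.561 per kilobase and 11.1% of the CPM, most of it from Hist1h2bc. The ranges of all 4 kinds overlap. The last 50 bases of the annotated transcript were searched for AATAAA or ATTAAA, the letters of a poly(A) signal (sense strand). Of the 18 genes that run past, 8 had such a signal, with a median of 1.87 CPM per kilobase (range 0.230 to 51.4). The other 10 had a median of 0.626 (range 0.0922 to 3.53), so the ranges overlap. Hist1h4h was the 1 gene ending near its stem-loop that also had a signal. The kinds also differed in how much of their sequence is shared with other genes: a median of 23.5% of windows in the genes that run past against 58.7% in those that end near the stem-loop. The part of this sharing in the levels was not tested. Reads that lie wholly past the annotated end of a gene are not counted for it. The annotated end therefore also sets which reads could be counted, and it differs between the kinds. The annotation behind the counts is not stated, and the part of this in the levels was not tested either.

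**Figure D2:**
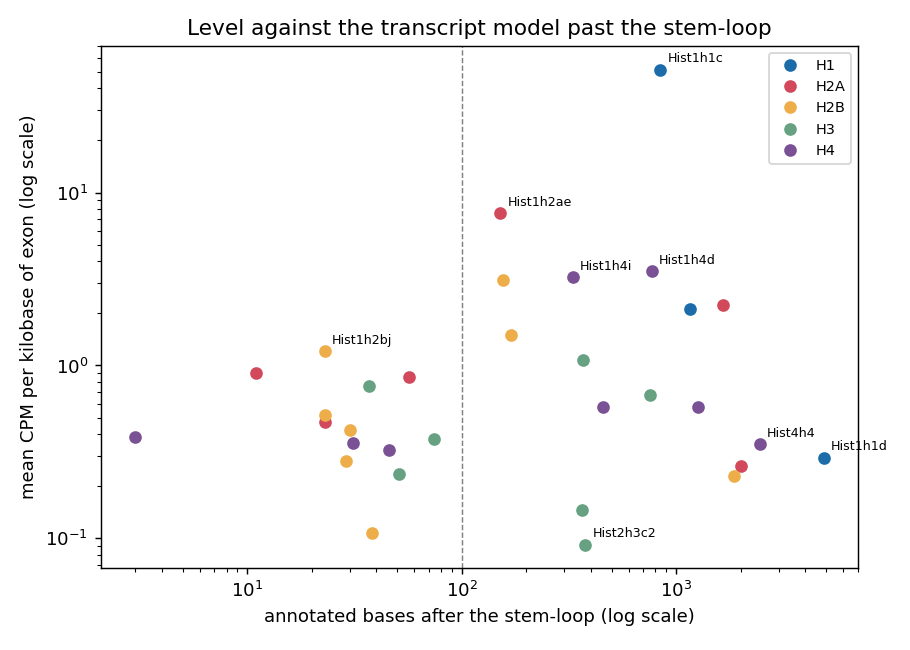
Each point is 1 of the 32 genes with a stem-loop, with the number of annotated transcript bases after the stem-loop and the mean CPM per kilobase of exon, both on log axes, coloured by class; the dashed line stands at 100 bases. To its left no gene is above 1.21, and to its right levels run from 0.0922 to 51.4.

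Reads that fit several places were left out by the counting, and the clustered histone genes are near copies of each other. Of the 68 genes with a row, the 10 without a read had a median of 98.7% of 50-base windows shared with another gene, and in 5 of them (Hist2h2aa1, Hist2h2aa2, Hist2h3c1, Hist2h3b and Hist2h2bb) every window was shared. The median was 71.7% in the 14 genes with 1 to 19 counts, 62.0% in the 20 with 20 to 99 counts and 26.9% in the 24 with 100 counts or more. A low value of a gene with many shared windows is therefore a lower limit of its level. Along chromosome 13 the genes fell in stretches. The stretch at chr13:23531050-23764406 had 28 genes with a row and 22 members, which summed to 114 CPM (33.8 CPM without Hist1h1c), with a median of 41.8% of windows shared. The stretch at chr13:21715763-21837530 had 18 genes with a row and 10 members, which summed to 8.47 CPM, with 87.0% shared. The small stretch at chr13:22035164-22043676, which holds Hist1h2bj, Hist1h2bk, Hist1h2ag and Hist1h4i, had 3.35 CPM.

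Many H2A and H2B genes lie head to head and share the sequence between their start sites. Of 13 such pairs within 500 bases, both genes were members in 7, with 172 to 278 bases between the starts. The higher gene of these pairs was above the lower by 1.70-fold to 32.6-fold per kilobase (median 2.46-fold). The widest gap was between Hist1h2bc at 8.58 CPM per kilobase and Hist1h2ac at 0.263, whose starts lie 250 bases apart. Hist1h2ac had 0.938, 0.585, 0.779 and 0.311 CPM against 8.42, 9.61, 10.5 and 11.1 CPM for Hist1h2bc. The pair thus also lay apart in every library before length was taken into account. Every H2A gene of these pairs overlaps a gene model on the opposite strand, and the part of this in the gaps was not tested. The shared promoters of 2 pairs whose genes lay on opposite sides of 0 in the genotype comparison are shown from RefSeq (GRCm38.p6). They run from 250 bases before to 50 after the start of 1 gene and hold the whole stretch between the starts, or all but its first bases. Capitals mark the TATA, CCAAT and octamer motifs that are spelled out in the next paragraph, read on either strand.
Hist1h2ac with Hist1h2bc, chr13:23683910-23684209, minus strand: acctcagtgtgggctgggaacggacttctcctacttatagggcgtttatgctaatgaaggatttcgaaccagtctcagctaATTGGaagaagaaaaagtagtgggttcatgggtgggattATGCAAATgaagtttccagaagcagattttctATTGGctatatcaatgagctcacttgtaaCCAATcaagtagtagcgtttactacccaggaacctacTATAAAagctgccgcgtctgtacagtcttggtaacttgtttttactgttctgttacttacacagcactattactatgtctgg
Hist1h2ag with Hist1h2bj, chr13:22042948-22043247, plus strand: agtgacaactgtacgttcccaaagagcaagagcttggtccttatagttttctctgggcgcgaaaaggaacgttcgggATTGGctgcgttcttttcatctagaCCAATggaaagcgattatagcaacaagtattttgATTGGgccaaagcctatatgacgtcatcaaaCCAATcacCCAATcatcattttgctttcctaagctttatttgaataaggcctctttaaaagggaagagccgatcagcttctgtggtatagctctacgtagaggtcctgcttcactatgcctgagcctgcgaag

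These motifs were counted in the promoters of the 38 members that matched a RefSeq entry, on both strands. The promoters of head-to-head genes, such as Hist1h2ag and Hist1h2bj, overlap and were each counted. The 38 are therefore not separate sequences, and a motif can count for both an H2A and an H2B gene. CCAAT was found in 84.2% of them, against 37.4% of all 32851 promoters of the same length, in every H1, H2A, H2B and H3 promoter and in 2 of 8 H4 promoters. TATAAA was found in 63.2% against 13.6%. ATTTGCAT, the octamer bound by POU factors such as Oct-1, was found in 5 of 9 H2A and 3 of 9 H2B promoters and in none of the other classes, and in 21.1% of members against 1.74% of all. AAACACA, known from H1 promoters, was found in 4 of 5 H1 promoters and in 13.2% of members against 7.18%. A match is a description of letters and not of a bound site.

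The design implies 1 comparison, Il33flx against Ctrl. No clustered histone gene passed the test between the genotypes. The summed CPM was 138.8 ± 1.33 (SD, n = 2) in Ctrl and 139.2 ± 27.0 (SD, n = 2) in Il33flx. Of the 44 members, 39 passed the filter on low counts. The other 5, Hist1h4k, Hist1h2bl, Hist1h2an, Hist1h2bp and Hist2h3c2, had 21 to 28 counts in all and were not tested. With edgeR's quasi-likelihood test, adjusted over the 14995 genes tested, 0 of the 39 were called at an adjusted p below 0.05, where 0.00667% of all genes tested were called, and the members' adjusted p was 0.995 at the smallest. One member, Hist1h2be, had an unadjusted p below 0.05, against 3.26% of all genes. DESeq2 called 0 of 39 members with an adjusted p, against 0.345% of all genes, and limma-voom called 0. The authors' deposited table also listed 39 members and called 0 of them, with 15 fold changes above 0 and 24 below.

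The fold changes lay on both sides of 0. They ran from -1.05 to 1.36 on the log2 scale, with 15 above 0 and 24 below (61.5%, against 48.2% of all genes tested), and the median was -0.09 against 0.01 for all genes. The 95% interval included 0 in 38 of 39 members. Both Il33flx libraries were above both controls in 7 members (17.9%, against 15.4% of all genes) and below them in 6 (15.4%, against 14.9%). With library size alone as the scaling these counts were 9 and 4 (23.1% and 10.3%), against 21.4% and 10.1% of all genes. Without Ctrl 1, the library that stood apart, edgeR again called 0 of 39 members and the median was -0.015. The median log2 fold change was -0.26 in H1, with 5 of 5 genes below 0, 0.16 in H2A, 0.09 in H2B, -0.19 in H3 and -0.05 in H4. For Hist1h1c it was -0.03 ± 0.23 (SE), with a 95% interval of -0.58 to 0.53, and its sign turned with library size alone (0.05), without Ctrl 1 (0.03) and without Il33flx 1 (0.22).

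**Figure D3:**
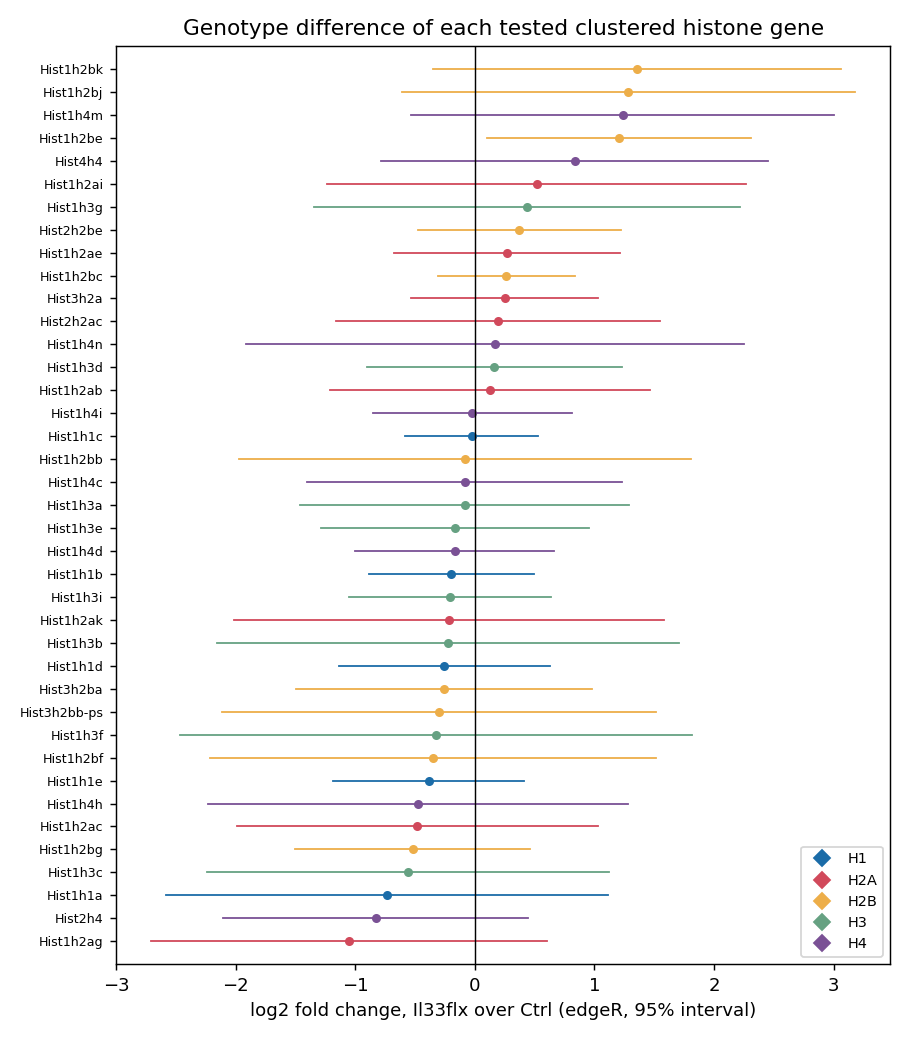
Points are edgeR log2 fold changes of Il33flx over Ctrl for the 39 tested genes, ordered by size and coloured by class, and lines are 95% intervals. The interval of Hist1h2be is the only one that does not include 0, before any adjustment over the genes tested.

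The members with the smallest unadjusted p toward higher values in Il33flx were Hist1h2be, Hist1h2bk, Hist1h4m and Hist1h2bj. Hist1h2be, an H2B gene with a 2-exon model, had 0.482, 0.758, 1.40 and 1.45 CPM, from 37, 57, 99 and 103 counts. The groups did not overlap, and the log2 fold change was 1.20 ± 0.46 (SE; 95% interval 0.10 to 2.31; adjusted p = 0.995 with edgeR). Its model overlaps Hist1h1e and Gm11398 on the same strand, and Hist1h1e lay the other way, at -0.39 ± 0.33 (SE). Hist1h2bk had 0.104, 0.120, 0.241 and 0.339 CPM, from 8, 9, 17 and 24 counts, with a log2 fold change of 1.36 ± 0.71 (SE). Hist1h4m had 7, 7, 14 and 17 counts and 1.24 ± 0.74 (SE). In Hist1h2bj, at 1.28 ± 0.79 (SE), the groups overlapped, and its fold change was 0.61 without Ctrl 1 and 2.58 without Ctrl 2. For Hist1h2bc, the second gene by level per kilobase, the groups lay apart and the log2 fold change was 0.26 ± 0.24 (SE).

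Toward lower values the smallest p were those of Hist2h4, Hist1h2ag, Hist1h2bg and Hist1h1e. Hist2h4, an H4 gene, had 110, 74, 64 and 32 counts, and both Il33flx libraries were below both controls, with a log2 fold change of -0.83 ± 0.53 (SE; adjusted p = 0.995 with edgeR). Hist1h2ag had 0.287, 0.332, 0.184 and 0.113 CPM, from 22, 25, 13 and 8 counts, and -1.05 ± 0.69 (SE). Hist1h2bg was at -0.52 ± 0.41 (SE), again with groups that did not overlap. Of 5 head-to-head pairs with both genes tested, 1 had fold changes of the same sign. Hist1h2ag and Hist1h2bj were at -1.05 and 1.28, Hist1h2bg and Hist1h2ae at -0.52 and 0.27, and Hist1h2ac and Hist1h2bc at -0.48 and 0.26, none of these past the test. Without Il33flx 2 the signs within the last 2 of these pairs were alike, at -0.91 and -0.23 for Hist1h2bg and Hist1h2ae and at 0.07 and 0.25 for Hist1h2ac and Hist1h2bc.

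**Figure D4:**
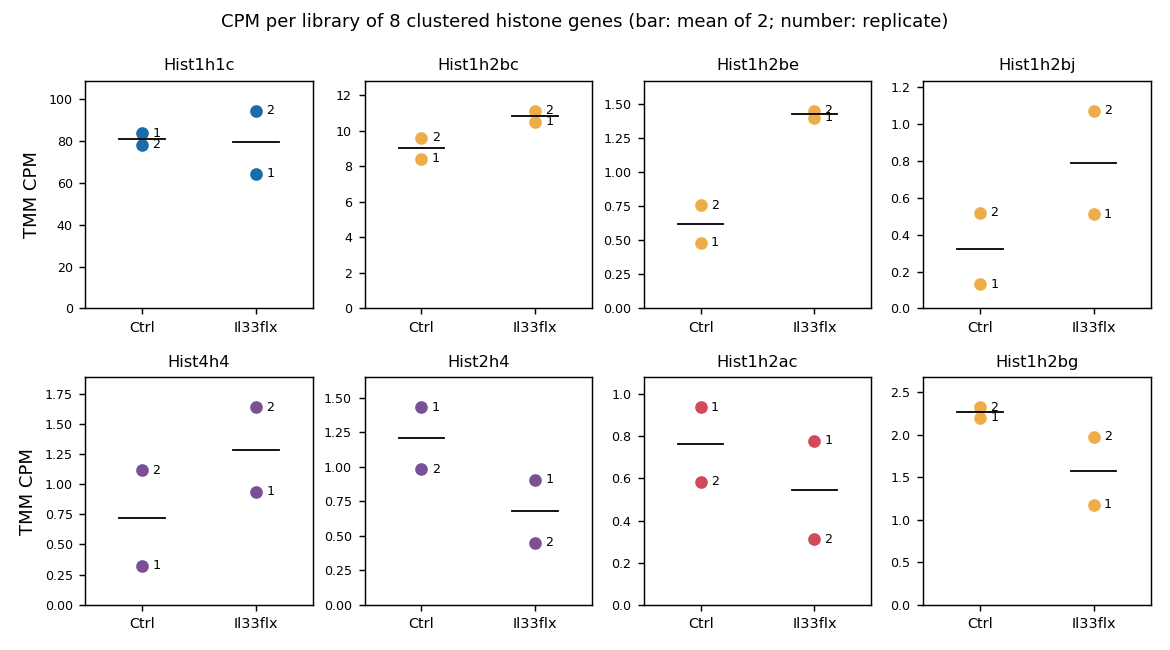
TMM-normalized CPM of 8 clustered histone genes in each library, on linear axes from 0, with the replicate number beside each point and a bar at the mean of 2. The groups lie apart in Hist1h2bc, Hist1h2be, Hist2h4 and Hist1h2bg and overlap in Hist1h1c, Hist1h2bj, Hist4h4 and Hist1h2ac.

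The estimated spread between libraries was close to that of other genes of like level. With 2 libraries a group, edgeR draws this estimate toward genes of like level. The likeness therefore does not show that the members' own spread is ordinary. The median biological coefficient of variation, edgeR's estimate of the spread beyond counting error, was 29.8% in members of 1 to 10 CPM against 30.7% in all such genes, and 44.5% against 49.1% at 0.05 to 0.5 CPM. In simulated counts of this design, edgeR called 13 of 66 genes changed by 1 on the log2 scale and 47 of 67 changed by 2. A 2-fold change of a member would thus often not be called. The changed genes were drawn from all 14995 tested. Of these 7158 lay at 10 to 200 CPM, against 1 of 39 tested members, so the call rates are not those of genes at the members' levels. Of the 24 members with 100 counts or more, 7 had Ctrl 1 as the lowest and Il33flx 2 as the highest library, namely Hist1h2bc, Hist1h2ae, Hist3h2a, Hist2h2be, Hist1h2bj, Hist4h4 and Hist1h2be. Hist1h1b, Hist2h4 and Hist1h2ac had the reverse order. Over all genes tested these orders were found in 11% and 11.1%.

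The first of these orders was also seen in other gene lists, and not only in genes of dividing cells. It held for 13 of 44 DNA replication genes and 4 of 11 replication-independent histone genes, with 0 in reverse. Among 22 histone chaperone genes it held for 5 and the reverse for 2. Among 25 factors of histone mRNA ends and decay each order held for 2. In a list of 25 mitosis genes, such as Top2a, which untangles DNA, 16 had Ctrl 1 lowest and Il33flx 2 highest and none the reverse. Their sums were 1869, 2455, 2270 and 2981 CPM. Hmmr, a spindle protein, had 17.1, 35.0, 38.1 and 48.5 CPM, with a log2 fold change of 0.73 ± 0.36 (SE). In the list, 24 of 25 fold changes were above 0 with a median of 0.40. edgeR and DESeq2 called 0 of them, and 0 had an unadjusted p below 0.05. Of 44 DNA replication genes, led by Mcm6, Mcm5 and Mcm3 of the replicative helicase, 33 were above 0 and 11 below, with a median of 0.13. Both tools called 0 of them, and only E2f1, a transcription factor of S phase entry, had an unadjusted p below 0.05 with edgeR, at 85.3, 68.7, 45.2 and 58.5 CPM. Per 100 CPM of the DNA replication genes there were 1.16, 1.29, 1.25 and 1.23 CPM of clustered histone genes other than Hist1h1c. Per 100 CPM of the mitosis genes there were 2.90, 2.51, 2.46 and 2.14 CPM, highest in Ctrl 1 and lowest in Il33flx 2.

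The factors that shape histone mRNA were measured in all libraries. Slbp, which binds the stem-loop, had 74.8, 79.4, 78.9 and 91.4 CPM, and Cpsf3, the nuclease that cuts after it, 235, 229, 205 and 224 CPM. Upf1, which takes part in histone mRNA decay, had 101, 80.2, 55.1 and 72.2 CPM, with a log2 fold change of -0.51 ± 0.22 (SE; adjusted p = 0.995 with edgeR). Of the 25 measured factors of this kind 10 were above 0 and 15 below, with a median of -0.04. Of 22 histone chaperones, the carriers of newly made histones, 14 were above 0 and 8 below, with a median of 0.03. Among these Rbbp7 had 374, 572, 561 and 636 CPM and Ubn2 had 11.3, 12, 16 and 16.8 CPM. Of the 11 replication-independent histone genes tested, 9 were above 0 and 2 below, with a median of 0.13. In these 3 lists edgeR and DESeq2 called 0 genes, and 0 had an unadjusted p below 0.05 with edgeR.

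Markers of some other cells also differed between the libraries. The 13 measured erythroid markers summed to 40.5 and 44.9 CPM in the Ctrl libraries and to 51.1 and 88.4 CPM in the Il33flx libraries. All 13 fold changes were above 0. The globin Hbb-bs had 2.19, 2.34, 8.44 and 2.44 CPM, while Slc4a1 and Klf1 had no read in Ctrl 1. The 10 neutrophil and precursor markers summed to 325 and 358 CPM in Ctrl and to 442 and 626 CPM in Il33flx. The 10 B cell markers summed to 120 and 142 CPM against 158 and 188 CPM. Both Il33flx libraries lay above both controls in 8 of 13 erythroid, 5 of 10 neutrophil and 9 of 10 B cell markers. Over all genes tested this held for 15.4%. In these 3 lists edgeR called 0 genes, with 7, 4 and 7 at an unadjusted p below 0.05, and DESeq2 called 1, 0 and 3. Other markers lay lower in Il33flx. Of the 13 markers of T cells and of EL4, the injected T lymphoma line, 11 were below 0, with a median of -0.48. In 7 of the 13 both Il33flx libraries were below both controls and in 1 above, against 14.9% and 15.4% of all genes tested. The sums of these markers overlapped at 593, 490, 593 and 557 CPM. The 7 plasma cell markers summed to 415, 368, 356 and 339 CPM, with 5 below 0 and 2 at an unadjusted p below 0.05. In 5 of the 7 both Il33flx libraries were below both controls and in 1 above. Neither edgeR nor DESeq2 called a gene of these lists, and no T cell marker had an unadjusted p below 0.05. Of the 14 conventional dendritic cell markers, 5 were above 0 and 9 below, with a median of -0.11. Both tools called 0 of them, and 1 had an unadjusted p below 0.05 with edgeR. Of 6 plasmacytoid dendritic cell, 10 macrophage and monocyte and 7 NK cell markers, 4, 3 and 5 were above 0. Both Il33flx libraries lay above both controls in 0, 1 and 1 of them, and below both controls in 0. Neither tool called a gene of these lists, and 0 had an unadjusted p below 0.05 with edgeR. The part of the other cell types in the histone values was not tested. In bulk samples, fewer cells of a type and less RNA per cell cannot be told apart.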

How the data were processed

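Poly(A) RNA of 2 Ctrl and 2 Il33flx libraries was analysed from the deposited whole-number read counts per gene, which are raw and not normalized. The tools named in the submitters' processing notes were Trimmomatic (0.39), STAR, HTSeq and DESeq2, and the build was GRCm38; read length, strand setting and annotation release are not given in the sources used here. In the authors' deposited table, the signal columns are counts divided by 1 size factor per library, the log2 columns hold the fold change of Il33flx over Ctrl and its standard error, the score column holds the Wald statistic, and the p-value columns hold unadjusted and adjusted p-values. Of the counted reads, 27.8% to 30.1% were in 5 summary rows that name no gene (21.9% to 23.1% not unique, 2.62% to 2.74% ambiguous) and were kept out of the totals and the fit. GENCODE M21 named 45229 of 46078 rows and gave coordinates, exon lengths and transcripts.

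Il33flx was compared with Ctrl by edgeR 4.0.16 in R 4.3.3 (quasi-likelihood F test, filterByExpr, TMM factors, no covariate, Benjamini-Hochberg adjustment over all genes tested, called below 0.05). Standard errors were derived from the log2 fold change and F. CPM are TMM-normalized, and levels per kilobase use the union of a gene's exons. The fit was tested on simulated counts with genes changed by known amounts, where 2 of 14393 unchanged genes were called. Limits from counts cover counting error only.

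The members and gene lists were chosen with earlier results of these data known. Genes are named by a rule: in each histone class the 3 highest per kilobase, the 4 smallest unadjusted p in each direction, the 4 widest ranges between libraries among members with 100 counts or more, and from each list the most abundant genes and those with the smallest p. A few other members are named to complete a class or pair, and were chosen after their values were seen. Alternatives were RLE factors, library size alone, other filters, DESeq2 1.42.0, limma-voom (limma 3.58.1), a replicate block, each library left out, a member minimum of 100 counts, transcript length and a looser stem-loop.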

Additional observations from a re-analysis of the deposited data

How the results depend on the processing

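No clustered histone gene was called under any alternative run, the smallest adjusted p being 0.19 for Hist1h2be without Ctrl 2, where 1 control library is left and is assumed to vary like the others. The members higher in both Il33flx libraries numbered 7, with 2 when 1 CPM in 2 libraries was required, 3 among members with 100 counts or more and 10 to 16 with 1 library left out (17.9%, 13.3%, 12.5% and 25% to 39% of the members, against 15.4%, 14.1%, 15.4% and 29.9% to 40.9% of all genes). Those lower numbered 6, with 2, 3 and 11 to 15 in the same order (15.4%, 13.3%, 12.5% and 27.5% to 37.5%, against 14.9%, 14.4%, 14.9% and 26.6% to 37.7%); with 3 libraries fewer values have to be separated. The median log2 fold change of -0.0862 was -0.014 with library size alone, -0.016 with the 1 CPM filter, -0.055 among members with 100 counts or more and -0.165 to 0.021 with 1 library left out. Over all genes 1 was called, against 0 with library size alone, without a filter and by limma-voom, 53 by DESeq2, and 0 to 36 with 1 library left out (36 without Ctrl 1, 29 without Il33flx 1); the cause was not tested. The replicate numbers were not taken as pairs, because the labels do not say that they pair animals. The deviations of same-numbered libraries had r = -0.0265 across 14995 genes, which are not independent replicates, and 0.172 across the 39 tested members. With 2 libraries a group, of which Ctrl 1 stood apart, these values cannot decide whether the libraries were paired. With the replicate block, 0 members and 33 genes in all were called and the members' median was -0.129. With the longest annotated transcript as the length, the same 15 genes had the highest level per kilobase. Depth limits the 20 members under 100 counts, and non-unique reads were not counted.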
